A study of Mus musculus with 4 samples.

Results

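The 6 genes described here are 5 members of the mouse Ifit family, Ifit1, Ifit1bl1, Ifit2, Ifit3 and Ifit3b, and Rsad2, which encodes viperin. They were taken by name from the 31053 features of the count matrices, and all 6 were present. They were chosen because earlier results of these data showed them higher in the PD-L1 KO libraries than in the WT libraries, so every difference between these groups is given as a description with no test. Expression was measured by droplet single-cell RNA sequencing of lung cells from Balb/c mice, 14 days after 4T1 cells, a breast carcinoma line of the mouse, were injected into a vein, from where they reach the lung. The mice of the group labelled WT had received 4T1.WT cells, and those of the group labelled PD-L1 KO had received 4T1.PD-L1 KO cells. Libraries are named after these labels and the number in their titles, as in PD-L1 KO 2. PD-L1 binds PD-1, an inhibitory receptor on leukocytes. The knockout was thus in the injected tumour cells, and the leukocytes measured belonged to the host. All lungs were perfused and digested with collagenase, and cells bearing CD45, a surface protein of leukocytes, were selected with magnetic beads. Each group had 2 libraries, and the labels do not say whether these came from separate mice, whether mice were pooled, or whether the knockout line was 1 clone.

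Ifit genes and Rsad2 are among the genes most strongly switched on by type I interferon, the antiviral cytokine family that signals through the receptor IFNAR, the kinases Jak1 and Tyk2 and the transcription factor complex ISGF3. Ifit proteins carry tetratricopeptide repeats and bind viral or otherwise unusual RNA: Ifit1 recognises RNA caps that lack methylation, and Ifit3 and Ifit2 form complexes with other family members. Ifit3b is a close copy of Ifit3, and Ifit1bl1 resembles Ifit1. Viperin is a radical SAM enzyme that converts CTP into a nucleotide that stops viral RNA synthesis, and Cmpk2, its neighbour in the genome, encodes a kinase that supplies nucleotides. In leukocytes these genes serve as a readout of exposure to interferon, and most cell types can express them.

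The libraries held 2370 to 2736 cell barcodes, of which 2062 to 2509 per library (9256 in all) passed a filter of at least 200 genes and at most 10% mitochondrial UMIs. A UMI (unique molecular identifier) stands for 1 captured RNA molecule. Kept cells held 17056968 to 19042842 UMIs per library, with medians of 4541 and 4700 UMIs per cell in the WT libraries and 5248.5 and 5629 in the PD-L1 KO libraries. Ptprc, the gene of CD45, had a UMI in 77.7% to 88.0% of kept cells. Library WT 2 stood apart from the other libraries in its whole profile, with a chi-square per degree of freedom of 42.0 to 58.8 against them, compared with 10.1 to 14.5 among the other libraries. It held the most endothelial cells (13.6% of kept cells, against 5.54% to 7.05%). Cd274, the gene of PD-L1, was at 31.0 and 24.1 CPM (counts scaled to the total UMIs of the library) in the WT libraries and at 47.5 and 38.9 CPM in the PD-L1 KO libraries. This does not check the labels, since the deletion was in the injected tumour cells. The names of the deposited files of the samples labelled WT carry the abbreviation KO, and those of the samples labelled PD-L1 KO carry CK. The direction of every difference between the groups below rests on the sample labels and would be reversed if the file names were right.

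The Ifit members lay on chromosome 19 within 99316 bases (chr19:34550694-34650009, GRCm38/mm10, GENCODE M21), in the order Ifit2, Ifit3, Ifit1bl1, Ifit3b and Ifit1. Ifit1bl1 was on the minus strand and the other 4 were on the plus strand. Rsad2 lay on the minus strand of chromosome 12 (chr12:26442746-26456452). No annotated gene overlapped any of the 6. The reads of the 3' kit fall near transcript ends, and 6.34% of the 91-base stretches in the last 500 bases of Ifit3 also occurred in Ifit3b, so a few UMIs of this pair may have been dropped or misassigned. The last 500 bases of the other 5 transcripts shared no stretch of that length with another member.

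Since the members share a known regulator, their promoters were searched for the letters of the interferon-stimulated response element, the site that ISGF3 binds, written here as GAAANNGAAA on either strand. The sequences below are the 250 bases before the RefSeq start site (build GRCm38.p6), 5′ to 3′ on the strand of the gene, with matches in capitals. Every match read TTTCNNTTTC on the strand shown, because the motif was on the opposite strand. They cover chr19:34640639-34640888 (plus) for Ifit1, chr19:34583279-34583528 (plus) for Ifit3, chr19:34607707-34607956 (plus) for Ifit3b, chr19:34601969-34602218 (minus) for Ifit1bl1, chr19:34550444-34550693 (plus) for Ifit2 and chr12:26456453-26456702 (minus) for Rsad2.
Ifit1: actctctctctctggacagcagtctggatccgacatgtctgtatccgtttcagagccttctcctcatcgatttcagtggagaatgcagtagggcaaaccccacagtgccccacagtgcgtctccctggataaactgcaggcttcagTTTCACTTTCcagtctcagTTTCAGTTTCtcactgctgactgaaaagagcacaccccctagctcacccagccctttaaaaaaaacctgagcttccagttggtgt
Ifit3: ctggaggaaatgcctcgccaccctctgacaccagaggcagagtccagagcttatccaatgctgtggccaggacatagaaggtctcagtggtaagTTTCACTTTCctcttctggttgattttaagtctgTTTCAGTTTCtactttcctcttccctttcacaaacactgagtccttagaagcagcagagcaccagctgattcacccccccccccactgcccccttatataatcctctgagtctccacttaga
Ifit3b: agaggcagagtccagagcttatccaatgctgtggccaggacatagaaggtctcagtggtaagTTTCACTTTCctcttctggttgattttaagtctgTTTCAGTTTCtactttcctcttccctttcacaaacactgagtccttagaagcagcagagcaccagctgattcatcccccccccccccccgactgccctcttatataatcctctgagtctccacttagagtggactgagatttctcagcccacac
Ifit1bl1: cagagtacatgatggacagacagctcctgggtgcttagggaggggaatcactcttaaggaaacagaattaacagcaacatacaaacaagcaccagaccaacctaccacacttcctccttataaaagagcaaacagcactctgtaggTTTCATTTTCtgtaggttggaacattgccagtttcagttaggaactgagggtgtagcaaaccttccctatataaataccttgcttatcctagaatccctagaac
Ifit2: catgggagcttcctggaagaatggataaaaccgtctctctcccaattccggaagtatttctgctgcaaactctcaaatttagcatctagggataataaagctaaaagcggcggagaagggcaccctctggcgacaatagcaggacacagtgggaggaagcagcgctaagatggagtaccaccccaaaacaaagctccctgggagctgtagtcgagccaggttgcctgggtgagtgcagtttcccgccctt
Rsad2: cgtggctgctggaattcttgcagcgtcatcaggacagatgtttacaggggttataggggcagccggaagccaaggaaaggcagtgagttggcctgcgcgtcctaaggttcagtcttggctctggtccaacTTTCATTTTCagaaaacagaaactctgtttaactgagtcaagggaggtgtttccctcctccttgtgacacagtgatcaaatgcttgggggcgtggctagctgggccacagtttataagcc

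Counted from the first base of the match to the start site, Ifit1 had matches 104 and 85 bases upstream, Ifit3 156 and 122 bases upstream, and Ifit3b 188 and 154 bases upstream. In each of these promoters the pair was the same, GAAAGTGAAA farther from the start site and GAAACTGAAA nearer to it. Rsad2 and Ifit1bl1 had 1 match each, GAAAATGAAA, at 120 and 104 bases upstream. A second RefSeq start site of Ifit1bl1 had the same letters 23 bases upstream. Neither of the 2 windows of Ifit2 held the letters in the 300 bases searched. Of all 32851 RefSeq promoter windows of the same 300 bases, 3.44% held at least 1 match and 0.225% held at least 2. Among genes with a window, 11 of 19 further type I interferon-stimulated genes and 7 of 14 interferon-gamma targets had a match, compared with 3.99% of all genes and 5 of the 6 members. Ifit3 and Ifit3b shared an unbroken run of 169 bases, so they do not count as separate examples. The window of Ifit1 overlapped by 245 bases with that of Ifit1bl2, a family gene on the opposite strand that is not a member. A match is a description of letters, not a bound site.

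In whole libraries, 5 of the 6 genes had higher CPM in both PD-L1 KO libraries than in either WT library, by about the same factor. Beside this count, 14.8% of 16044 genes with at least 10 UMIs did so. Because the genes were chosen from this contrast, nothing is read from the count. In sums over whole libraries, more cells of a type and more RNA per cell cannot be told apart. Ifit1 was at 27.6 and 29.8 CPM in the WT libraries and at 46.5 and 58.4 CPM in the PD-L1 KO libraries. Ifit2 was at 17.2 and 18.1 CPM against 34.6 and 38.0 CPM. Ifit3 was at 14.9 and 17.5 CPM against 29.9 and 37.0 CPM. In each of these genes the lower PD-L1 KO library was at least 1.5 times as high as the higher WT library.

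Rsad2 was at 35.3 and 33.6 CPM in the WT libraries and at 64.4 and 66.9 CPM in the PD-L1 KO libraries, with the smallest spread between replicates relative to its level. Its fitted log2 difference was 0.91 to 1.08 under 12 alternatives and 0.39 with every cell thinned at random to 1000 UMIs. The share of thinned cells with Rsad2 overlapped between the groups, with means of 3.79% ± 0.265 (SD, n = 2) in WT and 3.89% ± 0.169 (SD, n = 2) in PD-L1 KO. Ifit1bl1, the scarcest member, was at 1.90 and 1.60 CPM against 3.62 and 4.05 CPM, from 30 to 69 UMIs per library. Ifit3b was at 3.74 and 6.08 CPM against 5.83 and 7.21 CPM, and its groups overlapped. The mean ratio of the 2 groups was 1.83 for Ifit1, 2.19 for Ifit1bl1, 2.06 for Ifit2, 1.90 for Rsad2 and 1.33 for Ifit3b. The fitted log2 differences (PD-L1 KO minus WT) ran from 0.48 (SE 0.28) for Ifit3b to 1.19 (SE 0.27) for Ifit1bl1, and their median over the 6 genes was 1.05, beside -0.02 over all 14048 genes tested. In the same fit, edgeR's quasi-likelihood test called 0 of 14048 genes (0.0%) at an adjusted p of 0.05. At an unadjusted p of 0.05 it called 567, and DESeq2's Wald test called 23 genes (0.164%) after adjustment. Ifit1bl2, a further gene of the family in the same cluster that is not a member, was at 5.14 and 4.54 CPM against 3.36 and 4.63 CPM, so its groups overlapped.

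**Figure D1:**
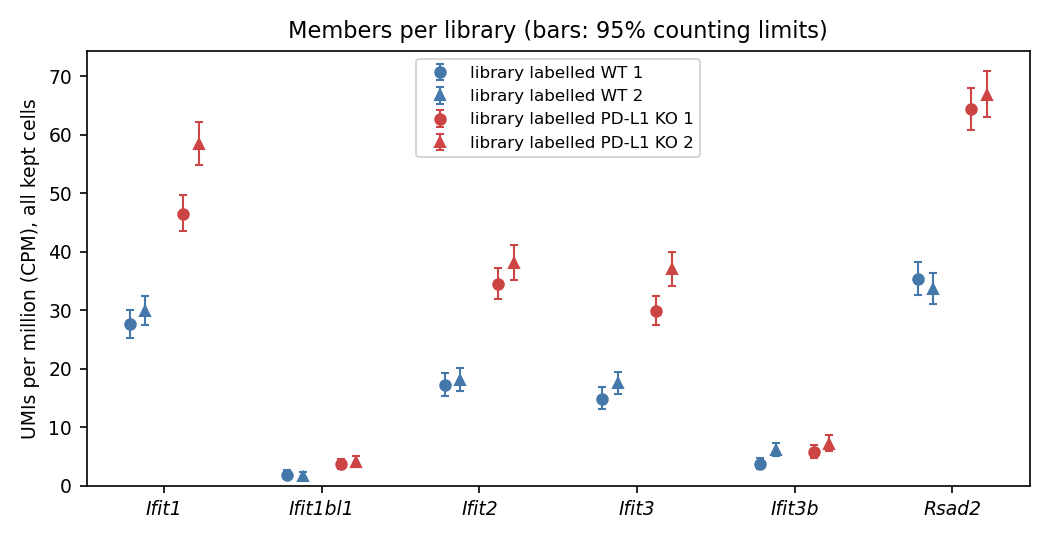
Depth-scaled UMI count (CPM, y axis) of each of the 6 genes (x axis) in each library, with bars for the 95% exact Poisson counting limits. The red points of the PD-L1 KO libraries lie above the blue ones of the WT libraries for every gene except Ifit3b, where library PD-L1 KO 1 (5.83 CPM) lies below library WT 2 (6.08 CPM).

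Split by member UMIs per cell, most of the difference between the groups lay in few cells. Such a limit is set on the measured genes themselves, and a rise in level or depth moves cells past it. The split thus cannot tell a rise in few cells from a general one. Together the 6 genes gave 100.6 and 106.7 CPM in the WT libraries and 184.8 and 211.6 CPM in the PD-L1 KO libraries, a mean of 103.7 ± 4.31 (SD, n = 2) against 198.2 ± 18.95 (SD, n = 2). Cells with at least 20 member UMIs numbered 11 and 9 in the WT libraries and 32 and 41 in the PD-L1 KO libraries. These cells held 22.5 and 12.7 CPM against 98.2 and 110.7 CPM, which is 91.8% of the difference between the group means. All other cells held 78.1 and 94.0 CPM against 86.7 and 100.9 CPM, and the groups overlapped. Just below the limit, cells with 10 to 19 member UMIs numbered 28 and 35 against 33 and 32.

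The same split appeared with a limit on the number of different genes. Cells with fewer than 3 of the 6 genes held 49.8 and 49.0 CPM in the WT libraries and 50.1 and 54.4 CPM in the PD-L1 KO libraries. Cells with 3 or more numbered 74 and 112 against 127 and 147 and held 50.8 and 57.7 CPM against 134.8 and 157.2 CPM. Cells high in the members also had many UMIs in all: those with at least 20 member UMIs had median totals of 12165 to 18922 UMIs per library, and the others of 4508 to 5549. With a limit that takes account of depth, at least 0.2% of the UMIs of a cell and at least 5 member UMIs, the cells past it numbered 31 and 32 against 34 and 45. They held 73.7% of the difference, and the remaining cells held 76.7 and 85.9 CPM against 98.3 and 114.1 CPM, groups that did not overlap. The cells past this limit also differed in depth, with medians of 2466 and 2204.5 UMIs in the WT libraries and 4649.5 and 4960 in the PD-L1 KO libraries; the part of this in the result was not tested. By this measure the numbers of high cells were closer. Over all cells, the one with the most member UMIs had 65 and 48 in the WT libraries and 233 and 130 in the PD-L1 KO libraries. All limits on cells were chosen after the values had been seen.

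**Figure D2:**
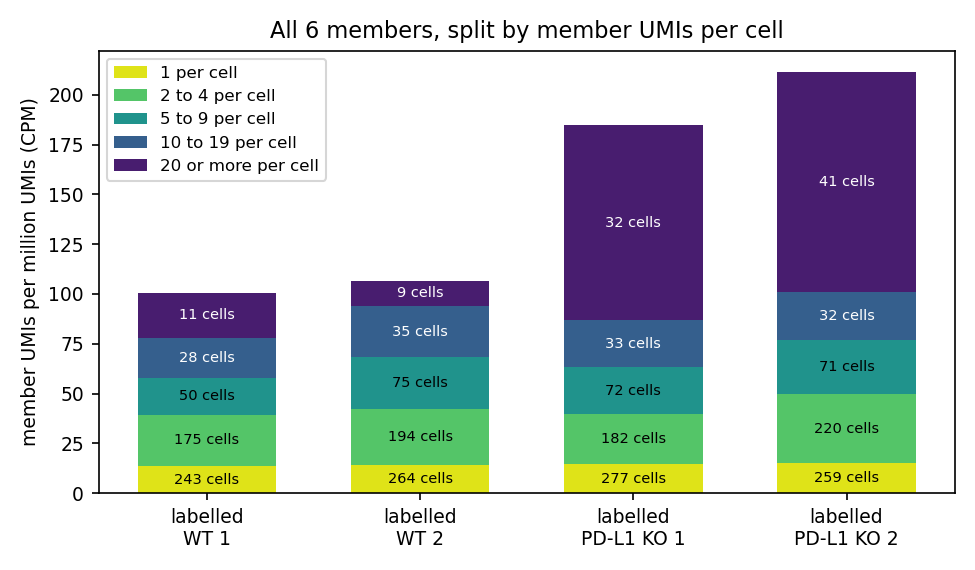
Member UMIs scaled to depth (CPM, y axis) in each library (x axis), split by how many UMIs of the 6 genes a cell held; the number of cells is written in each segment. The lower 4 segments reach 78.1 to 100.9 CPM in all libraries, and the dark top segment of cells with 20 or more rises from 12.7 and 22.5 CPM to 98.2 and 110.7 CPM.

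The share of cells with at least 1 UMI of any of the 6 genes was 20.2% and 23.9% in the WT libraries and 26.3% and 30.2% in the PD-L1 KO libraries. After every cell was thinned to 1000 UMIs, which removed the difference in depth and left out 80 to 153 shallower cells per library, these shares were 7.39% and 8.46% against 8.87% and 10.5%. The shares with 3 or more of the genes were 0.413% and 0.531% against 0.776% and 1.06% after thinning. Groups did not overlap in any of these shares, but thinning reduced the gap for any member from 6.19 to 1.78 percentage points. No class is known to lack these genes. Low unthinned shares were 2.04% in natural killer cells of library WT 2, at a median of 3280.5 UMIs, and 5.83% and 5.80% in alveolar macrophages labelled WT, at medians of 9890 and 10494 UMIs, so free RNA in the droplets gave at most these shares there.

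The 93 cells with at least 20 member UMIs came from many lineages. By the marker gate described under processing, 18 were macrophages, 13 neutrophils, 8 classical monocytes, 4 alveolar macrophages, 4 CD8 T cells and 3 conventional dendritic cells. The largest number, 28, stayed without a class. Of all 9256 kept cells, 1137 had no class because they had markers of a further lineage, with a median of 10101 UMIs against 4514 for cells with a class, as doublets do; their part in the result was not tested. Among cells with a class, those with at least 20 member UMIs numbered 8 and 4 in the WT libraries and 22 and 31 in the PD-L1 KO libraries. The median mitochondrial share was 3.43% to 4.02% in cells with at least 20 member UMIs and 4.21% to 4.65% in the others.

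These cells were also high in other interferon-stimulated genes. Isg15, a ubiquitin-like modifier, had a UMI in all 93 and in 35.9% of other cells. It was at 963 to 2073 CPM in the high cells of the 4 libraries, against 145 to 217.1 CPM in the other cells. Cxcl10, the ligand of CXCR3 that draws T cells, was at 328.1 to 1812 CPM against 24.1 to 75.1 CPM and had a UMI in 68.8% of the high cells. The antiviral GTPase Mx1, Usp18, the oligoadenylate synthetase-like Oasl1, Cmpk2 and the transcription factor Irf7 were also among the 12 genes with the highest smallest ratio over the 4 libraries. Of 27 other type I interferon-stimulated genes on a list, 22 were at least 2 times as high in these cells in every library (after 5 CPM was added to both values), compared with 0 of 20 genes known mainly as interferon-gamma targets and 1 of 24 for the interferon receptor, ISGF3 and upstream sensors. Of all 16044 genes with at least 10 UMIs, 0.362% were. The lists had no such minimum, and the last one includes Ifnb1 and Ifna genes, which had 0 UMIs and could not reach the limit. The summed level of the interferon-gamma targets was nonetheless higher in the high cells of each library, at 2554 to 6361 CPM against 1816 to 2495 CPM. The cells were chosen by member UMIs and were deeper, so this is a description with no test.

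Among the 12 classes with enough cells to be fitted, neutrophils had the highest mean level of Rsad2, Ifit1 and Ifit3b, and classical monocytes that of Ifit2, Ifit3 and Ifit1bl1. Alveolar macrophages were lower than the mean of the other classes in 4 members. This comparison is within libraries and does not use the difference the genes were chosen by; each class was tested against the mean of the other classes with edgeR's quasi-likelihood test and the library as a block. Over these classes and the 5 members that passed the filter on low counts, 19 of 60 pairs passed an adjusted p of 0.05, 12 of them higher and 7 lower. Over all genes 44.6% of such pairs passed, so the number itself does not set the members apart. Ifit1bl1 did not pass the filter. Ifit3b passed it through its level in neutrophils, so its pairs among the 19 are a description.

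Rsad2 was at 211.3 and 288.5 CPM in neutrophils of the WT libraries and at 249.7 and 207.2 CPM in the PD-L1 KO libraries. Its mean over the 4 libraries, 239.2 ± 38.1 CPM (SD, n = 4), headed the order of classes, followed by classical monocytes at 106.2 ± 97.7 CPM and macrophages at 67.2 ± 39.4 CPM. Endothelial cells were last of the 12 at 8.73 ± 7.31 CPM. The neutrophil value was higher than the other classes by 4.15 on the log2 scale (SE 0.31, adjusted p = 2.418e-16, edgeR), where 30.2% of all genes passed as higher. Neighbours in this order overlapped in their ranges, the range in neutrophils with that in classical monocytes (51.3 to 252.5 CPM) included.

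Ifit3b was likewise highest in neutrophils. It was at 27.3 ± 5.86 CPM (SD, n = 4) there and at 6.44 CPM or less on average in the other 11 fitted classes, and its lowest library in neutrophils (21.7 CPM) was above the highest in any of them (18.3 CPM, nonclassical monocytes). Epithelial or carcinoma cells, too few to be fitted, had a mean of 10.8 CPM and reached 23.0 CPM. The log2 difference was 4.10 (SE 0.38). Ifit3b passed the filter on low counts through its level in neutrophils, so no p is given for it. Ifit1 was higher in neutrophils by 2.77 (SE 0.28, adjusted p = 5.5e-12, edgeR) at 112.9 ± 13.1 CPM. Ifit3 was higher by 1.25 (SE 0.36, adjusted p = 0.002324, edgeR) at 28.7 ± 9.49 CPM, rank 5 of 12 classes by mean CPM. The fit rescales the sums and compares log levels, so its differences need not follow the order of mean CPM. Ifit2 stood at 22.4 ± 15.6 CPM, the seventh of 12 classes, with a log2 difference of 0.56 (SE 0.42, adjusted p = 0.247, edgeR) that did not pass. Neutrophils had 1670 to 2041 UMIs per cell at the median, classical monocytes and both classes of macrophages 7050 or more.

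Classical monocytes were higher in Rsad2 (log2 difference 2.03, adjusted p = 1.417e-05), Ifit3 (1.54, 4.24e-05), Ifit2 (1.34, 0.0007915) and Ifit1 (1.19, 0.002518) by edgeR, where 25.6% of genes passed as higher. Without library PD-L1 KO 1 the call for Ifit1 was lost. Macrophages, gated on the C1q genes and Trem2 among others, were higher in Rsad2 (1.31, adjusted p = 0.0018, edgeR; 29.6% of genes passed as higher). Ifit2 (0.76, adjusted p = 0.0279) and Ifit3 (0.74, adjusted p = 0.0226) passed there too in edgeR, but not under all alternatives. Conventional dendritic cells passed for Ifit2 (1.21, adjusted p = 0.0293, edgeR; 20.9% of genes passed as higher). This rested on library PD-L1 KO 2, at 174.7 CPM against 5.27 to 15.1 CPM in the other 3, and the sign turned without it (-0.70).

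Alveolar macrophages, the resident phagocytes of the airspace, were lower than the mean of the other classes in 4 members. By mean CPM they were rank 12 of the 12 fitted classes for Ifit2 and Ifit3, rank 11 for Ifit1 and rank 9 for Rsad2. Ifit3 was at 5.29 ± 4.34 CPM (SD, n = 4) and differed by -2.07 on the log2 scale (adjusted p = 4.047e-06, edgeR), Ifit1 by -1.56 (0.0001705) and Ifit2 by -1.45 (0.0004608). Rsad2 was lower by -1.23 (adjusted p = 0.0145, edgeR), a call lost without either WT library and without library PD-L1 KO 2. In that class 30.3% of genes passed as lower. Endothelial cells were lower in Rsad2 by -2.27 (adjusted p = 0.0002031, edgeR; 31.5% of genes passed as lower) and B cells in Ifit1 by -1.65 (adjusted p = 0.0103, edgeR; 17.2% of genes passed as lower). Ifit3b had 0 UMIs in natural killer cells of all 4 libraries, where 19.1% of genes passed as lower. Nothing is read from its call as lower there, since the gene passed the filter through neutrophils. This call against a count of 0 was lost under 7 of 11 alternatives, among them without any 1 of the 4 libraries.

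**Figure D3:**
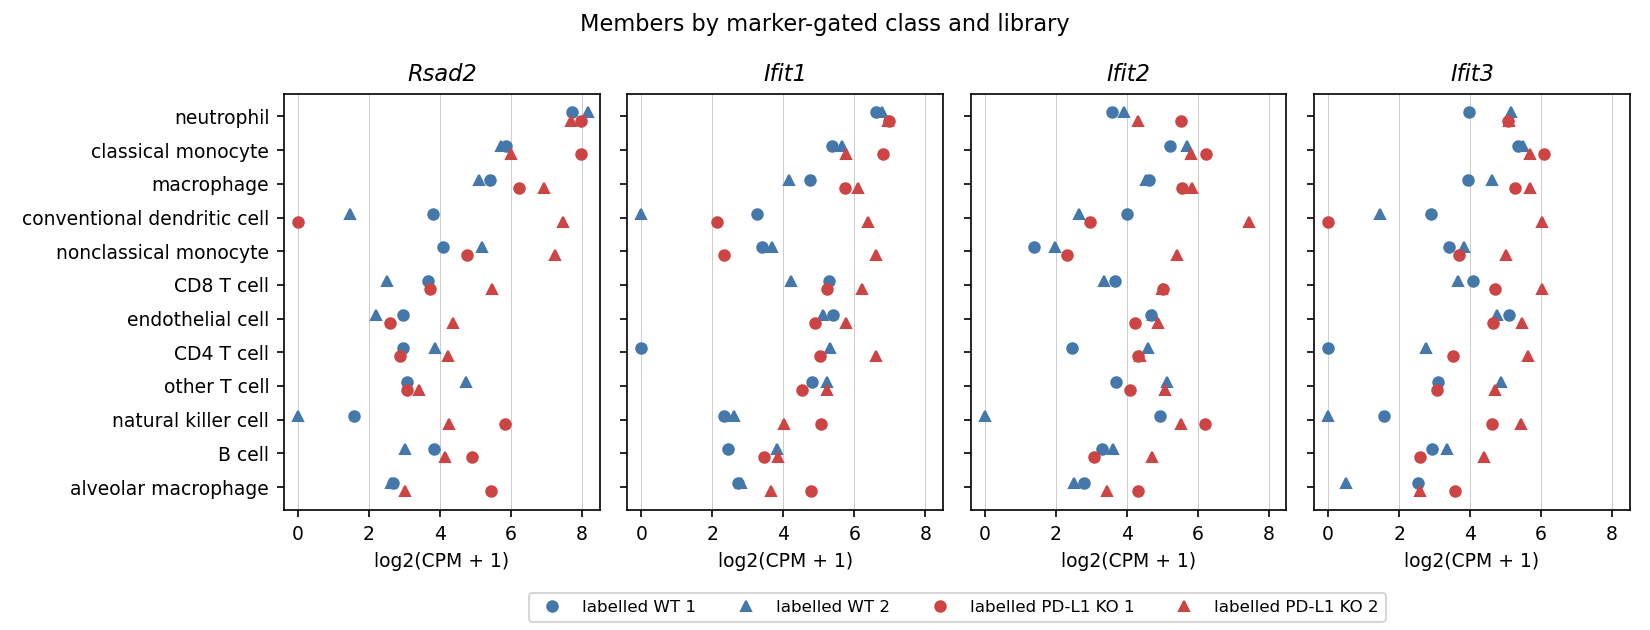
Level of Rsad2, Ifit1, Ifit2 and Ifit3 (x axis, log2 of CPM + 1) in each marker-gated class (y axis, ordered by the summed level of the 6 genes), 1 point per library, blue for WT and red for PD-L1 KO. Neutrophils lead for Rsad2 (207.2 to 288.5 CPM) with both groups mixed, and in macrophages the red points lie to the right of the blue ones in all 4 panels.

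Within classes, the PD-L1 KO libraries were above the WT libraries in most members in macrophages, classical monocytes, alveolar macrophages and natural killer cells. Macrophages gave 108.2 and 100.7 CPM of the 6 genes in the WT libraries and 213.1 and 304.8 CPM in the PD-L1 KO libraries. The groups did not overlap in 5 of the 6 genes, the exception being Ifit3b, and 15.3% of genes in this class had both PD-L1 KO libraries above. Rsad2 was at 41.3 and 33.6 CPM against 73.7 and 120.2 CPM there, and Ifit2 at 23.7 and 22.4 CPM against 45.9 and 56.8 CPM. The share of cells was higher too: 28.7% and 17.3% of macrophages labelled WT had a UMI of a member, against 46.7% and 52.9%. After thinning to 1000 UMIs the means were 5.99% ± 2.20 (SD, n = 2) and 11.98% ± 2.38 (SD, n = 2). Macrophages also made up more of the kept cells, 5.42% and 4.06% against 8.02% and 8.44%, and library WT 2 had shallower ones (median 7254 UMIs against 11793.5 to 12858). The part of these in the whole-library values was not tested.

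In neutrophils the summed level overlapped, at 359.2 and 476.6 CPM in the WT libraries and 490.1 and 405.1 CPM in the PD-L1 KO libraries. Rsad2 (log2 difference -0.03, SE 0.18) and Ifit3b (0.12, SE 0.32) had overlapping groups, as did Ifit3. Both PD-L1 KO libraries were above in Ifit1, Ifit1bl1 and Ifit2, 3 of 6 genes, beside 13.6% of genes in the class. These shares by class are over genes with at least 10 UMIs in the class, and Ifit1bl1 in neutrophils had 9. Ifit2 was at 11.1 and 14.2 CPM against 45.3 and 18.8 CPM, from 11 to 39 UMIs. The UMIs lay in fewer cells in the PD-L1 KO libraries. In the WT libraries 22 and 21 neutrophils held 50% of the member UMIs, and the cell with the most had 23 and 21. In the PD-L1 KO libraries 7 and 6 neutrophils held 50%, and the top cells had 99 and 86. The share of neutrophils with any member UMI was 26.1% and 38.3% against 28.3% and 21.9%, which overlapped.

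Alveolar macrophages had all 6 genes above in both PD-L1 KO libraries (17.3% of genes in the class did), from few UMIs. Ifit1bl1 (8 UMIs) and Ifit3b (6 UMIs) were below the 10 UMIs on which that share rests, so it bears on the other 4 genes. Together they were at 22.0 and 16.3 CPM in the WT libraries and 102.4 and 34.6 CPM in the PD-L1 KO libraries, and 5.83% and 5.80% of the cells had a UMI against 19.1% and 16.2%. The median log2 difference over the 4 genes that passed the filter was 1.62, and 0.86 without library PD-L1 KO 1. Classical monocytes had 5 of 6 genes above (19.4% of genes did), at 174.7 and 208.8 CPM against 530.0 and 236.3 CPM. A single cell held 233 of the 615 member UMIs of library PD-L1 KO 1, and the median log2 difference was 0.89, and 0.28 without that library. The share of classical monocytes with a member UMI was 31.4% and 30.3% against 27.7% and 36.2%, which overlapped.

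Among lymphocytes, CD8 T cells had 3 of 6 genes above (17.9% of genes did), with summed values of 83.4 and 58.5 CPM against 114.8 and 225.9 CPM. Ifit2 there was at 11.7 and 9.36 CPM against 31.2 and 31.2 CPM, with groups that did not overlap. Natural killer cells had 4 of 6 above (16.6% of genes did), at 37.8 and 5.15 CPM against 184.8 and 120.8 CPM, from 2 to 63 UMIs per library, 43 of the 63 in 1 cell. B cells had 2 of 6 (16.0% of genes did), CD4 T cells 1 (22.4%) and other T cells 1 (19.7%). The median log2 difference was 1.56 in CD8 T cells and 0.72 without library PD-L1 KO 2.

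No gene had non-overlapping groups in endothelial cells (15.5% of genes did) or in conventional dendritic cells (16.7%). Endothelial cells, the most numerous non-leukocytes, were at 113.2 and 93.5 CPM against 81.8 and 149.1 CPM. In conventional dendritic cells 190 of 220 member UMIs came from library PD-L1 KO 2. Nonclassical monocytes had 1 of 6 above (14.5% of genes did), and 73 of the 132 UMIs in library PD-L1 KO 2 were in 1 cell; without that library the log2 difference of the gene that passed the filter went from 1.69 to 0.02. Epithelial or carcinoma cells, 11 to 19 per library and too few to be fitted, were at 69.6 and 89.9 CPM against 460.9 and 296.0 CPM, with 177 of 253 and 88 of 103 UMIs in 1 cell of each PD-L1 KO library. Over the 12 classes fitted, Ifit2 was above in 7, Ifit3 and Rsad2 in 6, Ifit1 and Ifit1bl1 in 5 and Ifit3b in 2, and no gene was below in any of them. Of all genes with at least 10 UMIs in a class, 13.6% (neutrophils) to 22.4% (CD4 T cells) were above, and the share below was not computed. Some of the pairs of member and class rest on fewer than 10 UMIs. The classes come from the same 4 libraries, so these numbers are not independent. The members were chosen as higher in the PD-L1 KO libraries, so nothing is read from the counts.

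The mix of the 6 genes differed between classes as well as their sum. Rsad2 made up 55.4% ± 5.03 (SD, n = 4 libraries) of member UMIs in neutrophils, 36.4% ± 2.90 in macrophages and 7.27% ± 4.03 in endothelial cells, ranges that did not overlap. In nonclassical monocytes Rsad2 made up 47.2% ± 7.31 (38.46% to 54.17%), a range that overlapped with those of neutrophils (50.95% to 60.54%) and macrophages (33.33% to 39.43%). Ifit2 made up 4.99% ± 2.94 in neutrophils, 7.16% ± 3.87 in nonclassical monocytes and 21.1% ± 1.64 in macrophages. In endothelial cells Ifit1 made up 35.8% ± 0.702 and Ifit3 28.8% ± 0.658 of member UMIs. The order of the share of Rsad2, neutrophils above macrophages above endothelial cells, was the same in each of the 4 libraries.

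**Figure D4:**
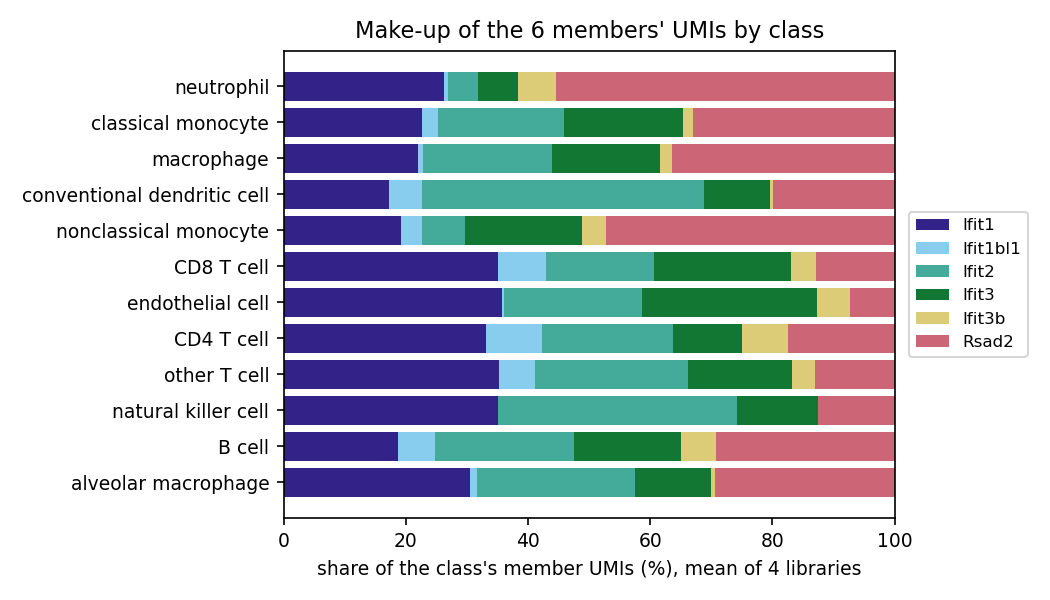
Share of the member UMIs of each class (x axis, percent, mean of 4 libraries) that came from each of the 6 genes; classes are ordered as in the plot of levels by class. Rsad2 takes 55.4% in neutrophils and 7.27% in endothelial cells, where Ifit1 takes 35.8%.

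Members were found together in single cells more often than their overall frequency. Of 1060 cells with a UMI of Ifit1, 37.6% also had Ifit3, compared with 8.20% of all cells, and 38.4% had Rsad2, compared with 9.63%. Of 283 cells with Ifit3b, 62.5% had Ifit1, compared with 11.5% of all cells. Of 306 neutrophils with Rsad2, 35.3% had Ifit1 and 7.19% had Ifit2. Deep cells are more likely to show any gene, and no test was made. Over the 48 sums per class and library, the correlation of log2 CPM between pairs of members ran from 0.421 (Ifit2 with Ifit3b) to 0.835 (Ifit1 with Ifit3). These points share libraries and differ in depth.

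The genes whose level followed the mean of the 5 members most closely over the same 48 sums, out of 10501 genes compared, were Isg15 (r = 0.852), the immunity-related GTPase Irgm1 (0.825), Cxcl10 (0.806), Isg20 (0.795), Gbp2b (0.794), Rtp4 (0.781), Parp14 (0.777), Ddx60 (0.734), Parp9 (0.721) and Cmpk2 (0.72). Their whole-library log2 differences were all above 0 and ran from 0.29 (Parp14) to 1.77 (Cxcl10). None passed, with an adjusted p of 0.754 for each in edgeR. The 48 sums include both groups, so genes picked to follow the members may carry the difference the members were chosen by. Nothing is read from their common sign.

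Other genes of the pathway had smaller median differences than the 6 genes, which were chosen for theirs. Of 28 further type I interferon-stimulated genes, 27 were tested in whole libraries and 0 passed in edgeR (19 at an unadjusted p of 0.05). All 27 log2 differences were above 0 with a median of 0.60, beside -0.02 and 46.2% above 0 over all genes tested. The lists were chosen with earlier results of these data known, so the common sign is a description. With 1 library left out, the log2 difference was 0.66 to 0.97 for Isg15, 0.64 to 1.05 for Bst2 and -0.20 to 0.34 for Slfn5. Isg15 was at 174.8 and 151.1 CPM against 257.6 and 286.9 CPM (log2 difference 0.80, SE 0.15, adjusted p = 0.754, edgeR). Bst2, the membrane tether tetherin, was at 144.7 and 117 CPM against 232.9 and 213.6 CPM (0.83, SE 0.17). Slfn5 overlapped, at 123.2 and 192.8 CPM against 146 and 162.5 CPM.

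The genes known mainly as interferon-gamma targets had a median log2 difference of 0.34 (18 of 20 above 0, 0 passed, 5 at an unadjusted p of 0.05, edgeR). Cxcl9, a further CXCR3 ligand, was at 168.7 and 35.7 CPM against 357.9 and 237.5 CPM (1.57, SE 0.77). The immunoproteasome subunit Psmb9 was at 179.8 and 160.3 CPM against 242.3 and 222.7 CPM (0.51, SE 0.13). For the receptor, ISGF3 and the upstream sensors the median was 0.21, with 14 of 18 tested above 0, 0 passed and 4 at an unadjusted p of 0.05 in edgeR. Ifnar1, a receptor chain, was at 73.1 and 72.5 CPM against 85.5 and 69.4 CPM, which overlapped. Jak1 was at 329.4 and 357.8 CPM against 307.5 and 301.5 CPM (-0.11, SE 0.10). Ifnb1 and the 14 Ifna genes had 0 UMIs in each of the 4 libraries; at 3 counts per library this limits them to 0.158 to 0.176 CPM.

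By class, the type I list had a median log2 difference of 1.32 in alveolar macrophages (27 of 27 above 0), 0.92 in macrophages (27 of 27) and 0.84 in CD4 T cells (17 of 17). It had 0.07 in neutrophils (13 of 24) and 0.08 in endothelial cells (18 of 22). Over the 3 lists and 12 classes, 4 list genes passed in edgeR, beside 0.0609% of all genes over the same fits. Among these were Cxcl9 in neutrophils (log2 difference 2.67, adjusted p = 0.002317; 0.357% of genes passed in the class), Slfn5 (1.75, adjusted p = 0.0395) in alveolar macrophages (0.0931%), and Isg15 in natural killer cells (2.01, adjusted p = 0.0123; 0.0796%). The calls named here were picked after their values were seen. The number of list genes that passed depended strongly on the settings and libraries, from 4 to 77. With 2 libraries against 2, the p-values of differences between groups reflect just how far replicate libraries lay apart, and that spread may be technical.

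**Figure D5:**
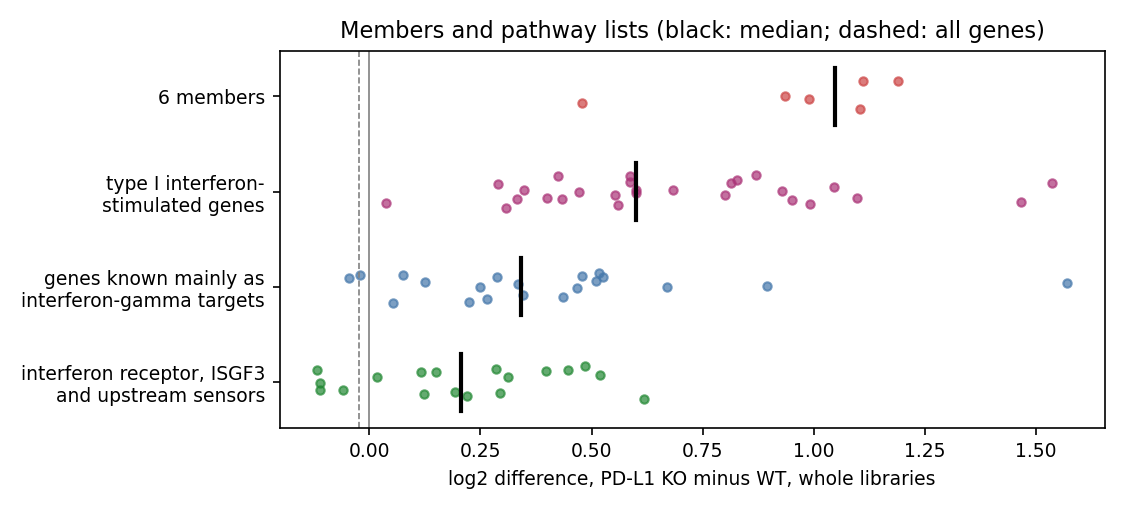
Log2 difference (x axis, PD-L1 KO minus WT, whole libraries) of each tested gene of the 6 members and of the 3 pathway lists; black bars are medians and the dashed line is the median of all genes. The medians are 1.05, 0.60, 0.34 and 0.21 from top to bottom, beside -0.02 for all genes; the members were chosen from this contrast.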

How the data were processed

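Per the submitters' processing notes, STAR in Cell Ranger 3.1.0 mapped the reads to mm10; no annotation release is given. The values deposited by the authors are raw UMI counts for each gene and barcode, without normalization, per the file headers. The 6 genes and the gene lists were chosen with earlier results of these data known. Kept cells (at least 200 genes, at most 10% mitochondrial UMIs) were assigned to classes by 16 marker lists: a cell needed at least 3 different markers of a class and a marker score at least 1.5 times that of any other lineage. This gave 7616 cells (82.3%) a class, and 635 of these had a score ratio under 2. No doublet caller was run. Cells with markers of a further lineage stayed without a class, and doublets within 1 lineage could not be detected. The macrophage and monocyte classes counted as 1 lineage, and so did T cells with natural killer cells. Endothelial cells, fibroblast or mural cells, and epithelial or carcinoma cells also counted as 1 lineage. At most 3 barcodes were shared by a pair of libraries, and no pair agreed within sampling noise. Sums of counts were formed for whole libraries and for the 12 classes of which no library had fewer than 20 cells, filtered with filterByExpr, scaled with TMM and tested with edgeR 4.0.16 (R 4.3.3), with Benjamini-Hochberg adjustment over all genes of a fit. DESeq2 1.42.0 was an alternative. CPM is the count scaled to the UMIs of the sum, intervals are 95% exact Poisson or binomial and cover counting error only, and ± is the SD. An exact permutation test of 2 against 2 libraries cannot go below p = 0.333. Genes named outside the members were the 4 most abundant of each list and the 10 most correlated with the members; those of the high cells, Ifit1bl2, the interferon genes and single list calls were chosen after their values were seen. A list gene is counted in its list and is not reported by name here. Scripts were tested on simulated data. Promoters were read from RefSeq (GRCm38.p6), and 30934 of 31053 feature IDs matched GENCODE M21.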

Additional observations from a re-analysis of the deposited data

Results flagged for a closer look

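Ifit2 in plasmacytoid dendritic cells went against the other classes: the mean of the libraries labelled PD-L1 KO minus that of the libraries labelled WT was -68.47 CPM, with both libraries labelled PD-L1 KO below both labelled WT, while in 7 classes both were above. It was at 138.2 and 54.0 CPM in the libraries labelled WT (22 and 13 cells, 24 and 5 UMIs) and at 11.7 and 43.6 CPM in those labelled PD-L1 KO (32 and 47 cells, 3 and 16 UMIs). A single cell held 12 of the 24 UMIs in library 1 labelled WT. This class had too few cells to be fitted, and the difference between classes was not tested.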

How the results depend on the processing

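The direction of the 6 genes in whole libraries was the same under the alternatives run, of which the one with thinned cells held 5 of them, without Ifit1bl1. Their median log2 difference of 1.05 was 0.94 to 1.14 with 1 library left out and 0.73 over those 5 with cells thinned to 1000 UMIs. Over all genes, the number past the threshold was 0, but 2159 without WT replicate 1, 19 without WT replicate 2, 23 with DESeq2, 3 with leukocyte classes alone and 1 with thinned cells; the cause was not tested. Of 11 classes with a tested member, 10 had a median above 0, and 9 to 12 did with 1 library left out. Pairs of member and class past the threshold numbered 19, and 37 of 72 with no filter on low counts, which tests more genes. Ifit2 in conventional dendritic cells (1.21) ran from -0.70 without PD-L1 KO replicate 2 to 1.61 without WT replicate 2. Slfn5 in whole libraries (0.04) was -0.20 without WT replicate 1, -0.05 without PD-L1 KO replicate 2, 0.34 without WT replicate 2 and -0.0054 with thinned cells. List genes past the threshold in whole libraries numbered 0, but 4 with DESeq2 and 36 without WT replicate 1 (0 to 36 with 1 library left out). By class they numbered 4, but 77 with no filter on low counts, 9 with DESeq2, 13 with no cell filter, 11 and 7 with a gate of 4 and 2 markers, and 12 to 57 with 1 library left out. An alternative chosen after seeing the data, leaving out the cell with the most member UMIs per library and class, gave 10. The share of cells with a member differed by 1.78 percentage points after thinning and by 6.19 unthinned.

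With the replicate number as a block, list genes past the threshold by class numbered 18, the median of the 6 genes in whole libraries was 1.05 and 0 genes passed. Same-numbered libraries deviated from their group means with a correlation of -0.289 over 14048 genes. The crossed pairing, chosen after seeing this, gave 51 list genes by class. Depth limits Ifit1bl1 and Ifit3b most, and classes with few cells.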
